A study of Mus musculus with 6 samples.

Results

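The C/EBP and KLF transcription factors were followed through 10 genes, namely Cebpa, Cebpb, Cebpd, Cebpg, Cebpz, Klf2, Klf3, Klf4, Klf6 and Klf13, in bone marrow-derived macrophages (BMDMs) treated with LPS. The genes were taken by symbol from a table of 55254 genes, of which 18430 had a count. The 10 genes had 34 of the 142567 transcripts in that table, and 26 of the 34 had at least 1 read in a library. The 3 control cultures came from hnRNPDfl/fl mice, which carry floxed exons of Hnrnpd (the gene of the RNA-binding protein AUF1) and no Cre. The 3 M-Δx3,4 cultures came from LysCre+hnRNPDfl/fl mice, in which Cre expressed from the lysozyme M locus (Lyz2) removes exons 3 and 4 of Hnrnpd in myeloid cells. Both groups were on the C57BL/6J strain, and the study's methods give an age of 6 to 8 weeks for marrow donors. All 6 cultures were differentiated for 10 days with medium conditioned by L929 cells and then received LPS, a bacterial endotoxin, at 100 ng/ml for 4 h. No untreated cells were analysed here, so the values describe the level under LPS and not the response to it. The controls lacked Cre as well as the deletion, and the effects of both cannot be told apart. Nothing in the labels says that the cultures came from separate animals, so the p-values measure the spread between these 6 libraries.

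C/EBP proteins are basic leucine zipper factors that bind DNA as dimers with one another or with related zipper proteins. C/EBPα (Cebpa) acts in the commitment of progenitors to the myeloid lineage, while C/EBPβ (Cebpb) and C/EBPδ (Cebpd) take part in the induction of cytokine and acute phase genes after LPS. KLF proteins bind GC-rich and CACCC elements through zinc fingers. Klf2 and Klf4 are known as restraints on inflammatory gene expression in macrophages, Klf6 as a factor that favours it, Klf3 as a repressor that recruits CtBP, and Klf13 as a regulator of chemokine expression in lymphocytes. Several mRNAs of both families are immediate early and short-lived. AUF1 binds AU-rich elements, which are stretches in 3′ UTRs built around the pentamer ATTTA that are known to control the decay of such mRNAs.

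The AU-rich content of the 3′ UTRs is shown first, because it is the sequence class that AUF1 is known to bind. The longer motif TATTTAT, which contains the pentamer, was searched on the transcript strand of each annotated 3′ UTR (GENCODE vM21, build GRCm38, the build the study calls mm10). Of the 10 members, Cebpd and Klf2 each had 1 match and Klf6 had 2, while the other members had none. These are the 4 sites with 9 bases on either side, 5′ to 3′, in which capitals mark the TATTTAT motif.

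Cebpd: ttggacattTATTTATtgtaacaga

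Klf2: acagactgcTATTTATtggacctta

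Klf6 (first): tacgtctctTATTTATgccttgagg

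Klf6 (second): caccggctgTATTTATtatgtaaca

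The Cebpd site lies on the plus strand at chr16:15889230-15889254, with the motif starting 1108 bases from the stop codon in a 3′ UTR of 2900 bases. The Klf2 site lies on the plus strand at chr8:72320990-72321014, with the motif starting 80 bases from the stop codon in a 3′ UTR of 737 bases. The Klf6 sites lie on the plus strand at chr13:5868492-5868516 and chr13:5868945-5868969, with motifs starting 1218 and 1671 bases from the stop codon in a 3′ UTR of 3111 bases. Among 9735 genes tested that have an annotated 3′ UTR, 29.5% held the motif. Longer 3′ UTRs held it more often, and among genes within 20% of the length of Klf6 the share was 50.9%, against 47.8% for Cebpd and 17.7% for Klf2. A match is only a match of letters, and binding was not measured here.

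The pentamer ATTTA was more widespread. The 3′ UTR of Cebpg held 10, those of Cebpd, Klf3 and Klf6 held 7 each, and those of Cebpz and Klf13 held 3 each. The 3′ UTRs of Klf2 and Klf4 held 1 each, whereas those of Cebpa and Cebpb held none. For Cebpz this refers to its coding transcript. The density was highest in Cebpz, at 3.43 pentamers per kilobase, and among members with a match it was lowest in Klf13, at 0.58 per kilobase in the longest 3′ UTR of the group (5157 bases). Over all 9735 genes it was 1.72 per kilobase.

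**Figure D1:**
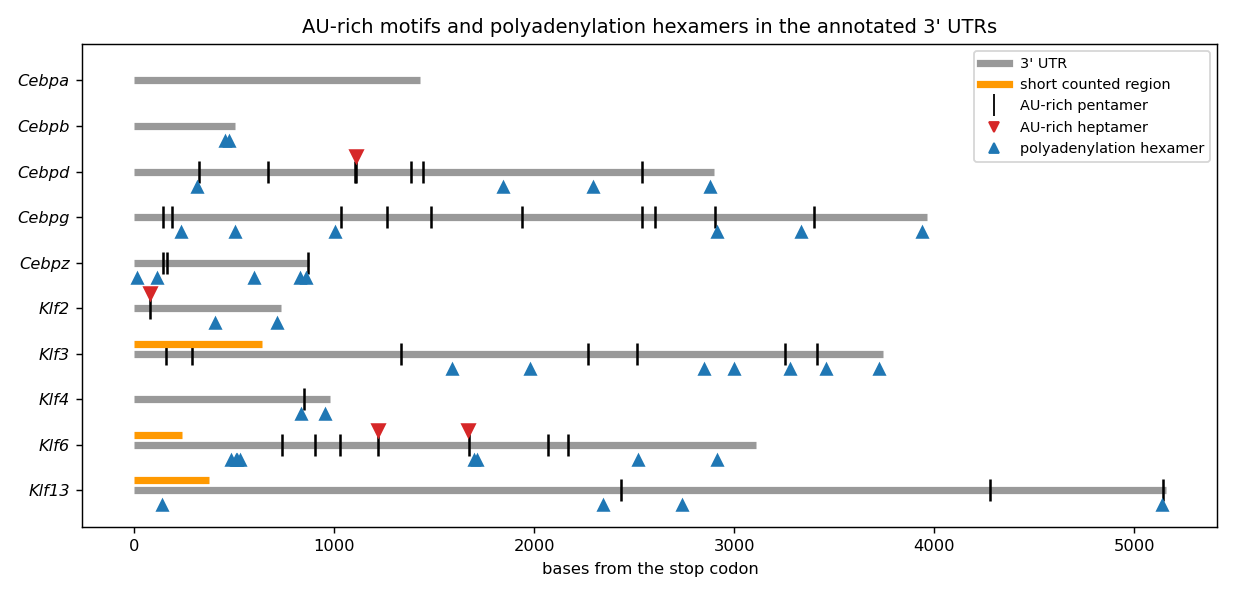
Grey bars are the annotated 3′ UTRs of the 10 members, drawn to scale in bases from the stop codon (Cebpz by its coding transcript), black ticks the pentamer ATTTA, red triangles the longer motif TATTTAT, and blue triangles polyadenylation hexamers (AATAAA or ATTAAA). Orange bars show the short counted regions of Klf3, Klf6 and Klf13, and red triangles appear only on Cebpd (1), Klf2 (1) and Klf6 (2).

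RNA had been read from its 3′ ends, and the values below are reads counted on the 3′ UTR region of a transcript, summed over the segments of that transcript and divided by a library factor (normalized counts). The libraries held between 5852374 and 9008878 counts over all transcripts. A counted region can run past the annotated 3′ UTR, and that of Klf6 had 3360 bases for a 3′ UTR of 3111. Overlapping transcripts of a gene share reads, so the transcript with the highest mean count stood for its gene. Hnrnpd itself, read on ENSMUST00000072750, had 177.8, 104.2 and 69.6 normalized counts in control and 52.8, 12.6 and 16.0 in M-Δx3,4, so every library was on the side of its label, although 3′ ends do not show the deleted exons. The libraries of the control group stood further apart than those of the mutant group. Over 4723 genes that averaged more than 50 normalized counts the ratio of the highest to the lowest library had a median of 1.88 in control and 1.51 in M-Δx3,4, and the correlation of 2 libraries across genes ran from 0.764 (control 1 with control 3) to 0.971 (control 1 with M-Δx3,4 replicate 3). Macrophage markers were high in all libraries, with a summed level of 6478.3 to 7066.6 in control and 5430.9 to 7089.8 in M-Δx3,4. Summed levels of the 8 neutrophil markers were 387.2 to 695.0 and 482.2 to 728.3, although Elane had no count and Ly6g and Mpo had at most 3 counts in a library. Those of the 6 B cell markers were 299.9 to 358.5 in control and 141.8 to 164.3 in M-Δx3,4, mostly through Igkc, with Ms4a1 at no more than 3 counts in any library. Igkc (log2 fold change -1.56), the eosinophil marker Prg2 (4.6, 0.0 and 5.8 normalized counts in control) and the fibroblast marker Col3a1 (13.9, 6.1 and 0.0 in control) were past the threshold described below, as were 3.07% of all genes tested. Both Prg2 and Col3a1 were at 0 in M-Δx3,4. These 2 entered the test only through control libraries above the limit on low counts, and their groups overlapped. They are therefore not read as differences between the groups. Dendritic cell, mast cell and eosinophil, and fibroblast markers summed to at most 10.2, 5.8 and 43.0. The part of other cells in the values below was not tested, and in bulk RNA fewer cells of a type and less RNA per cell cannot be told apart.

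To set levels of different genes side by side, the authors' TPM values were used. They divide by the length of the counted region, which lowers long regions in 3′ end data, so the order depends on that length. By mean normalized counts, which are not divided by length, Klf6 was at the top (816.8), before Cebpb (404.4) and Cebpd (365.9). Klf13 (190.2) and Klf3 (170.2) were then well above Klf2 (36.4). In TPM, Cebpb was at the top with 39.5 to 102 over the 6 libraries. Klf6 followed with 6.74 to 40.9 TPM and Cebpd with 6.95 to 16.6. The highest library of Klf6 was just above the lowest of Cebpb, and Klf6 and Cebpd overlapped. Klf3 (2.3 to 4.27 TPM), Klf2 (1.86 to 3.65 TPM) and Klf13 (1.55 to 3.55 TPM) formed a middle group whose ranges overlapped, and all of these were under the lowest library of Cebpd. Klf4 (0.434 to 1.11 TPM), Cebpa (0.192 to 1.01 TPM), Cebpz (0.0377 to 0.747 TPM) and Cebpg (0.114 to 0.427 TPM) were at the low end, again with overlapping ranges.

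Of the 10 members, each read on its best counted transcript, Klf6 alone passed the threshold, an unadjusted p under 0.05 (quasi-likelihood test of edgeR) together with a log2 fold change of at least 1 in size. The study set the same limits on a p combined from several methods, which was not computed here. The threshold was also passed by 3.07% of the 11875 genes tested with 1 transcript each, so 1 gene in 10 is too small a number to read against that share. Without the condition on the fold change the share over all genes was 3.98%, and among the members it was again Klf6 alone. Control and M-Δx3,4 libraries overlapped in all 10 members, while they did not overlap in 8.44% of the 11875 genes. The fold change was above 0 in 4 members and below 0 in 6, with a median of -0.12 against -0.01 over all genes tested. No transcript of any gene had an adjusted p under 0.05 (quasi-likelihood test of edgeR, adjusted after Benjamini-Hochberg, smallest adjusted p 0.824), while 1340 of 32475 had an unadjusted p under 0.05. Adjusted p-values of the 10 members were all 0.984 or higher.

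**Figure D2:**
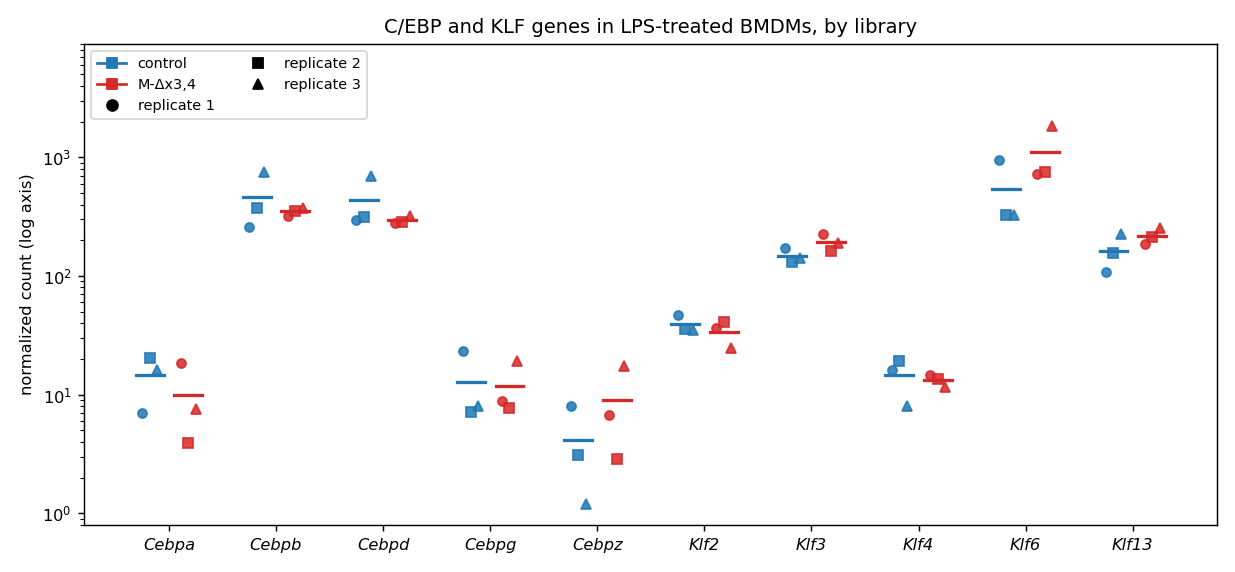
Each point is the normalized count (log axis) of 1 library for the transcript that represents the gene, with blue for control, red for M-Δx3,4, the shape giving the replicate and the line the mean of the group (n = 3). The blue and red points overlap for every gene, and the widest gap between the lines of the well-counted genes is that of Klf6 (536.9 against 1096.8).

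Klf6 had the highest counts of the 10 genes. The full region (ENSMUST00000000080, chr13:5867284-5870643, plus strand, covering the 3′ UTR) had 955.4, 326.9 and 328.3 normalized counts in control and 717.0, 755.5 and 1818.0 in M-Δx3,4. Control replicates 2 and 3 were below all M-Δx3,4 libraries, control 1 was above 2 of them, and M-Δx3,4 replicate 3 was far above the rest. The means were 536.9 ± 362.4 and 1096.8 ± 624.9 (SD, n = 3), a log2 fold change of 1.03 with a standard error of 0.46 (unadjusted p = 0.0421 and adjusted p = 0.984 in edgeR's quasi-likelihood test; exact permutation test, two-sided, p = 0.3). This increase passed the threshold, but it depended on single libraries. Without M-Δx3,4 replicate 3 the log2 fold change was 0.45, without control 2 it was 0.77 and without control 3 it was 0.79, none of which passed, whereas without control 1 it was 1.75.

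Klf6 was also counted over a shorter region (ENSMUST00000222857), annotated in GENCODE as a target of nonsense-mediated decay. All reads of this short region were on a last segment of 293 bases, of which 52 precede the full region and 241 are its first bases. Counted regions can run past the annotated end of a transcript, so these reads need not come from that transcript. The short region had 196.4, 89.9 and 87.0 normalized counts in control and 86.1, 278.7 and 840.6 in M-Δx3,4. The mutant libraries thus spanned a range of 9.77-fold, with replicate 1 below every control and replicate 3 above all. The log2 fold change was 1.69 (standard error 0.61, unadjusted p = 0.0138 and adjusted p = 0.984 in edgeR's quasi-likelihood test), and it was 0.55 without M-Δx3,4 replicate 3. Without control 2 its unadjusted p was 0.0526. Relative to the full region, these reads came to 20.6%, 27.5% and 26.5% in control and to 12%, 36.9% and 46.2% in M-Δx3,4, with overlapping groups (exact permutation test, two-sided, p = 0.5). After subtraction of the short region the rest of the full region still had 759.0, 237.0 and 241.3 normalized counts in control and 630.9, 476.8 and 977.4 in M-Δx3,4. Any reads that lay only on the 52 bases before the full region were subtracted too, so this rest and the percentages are approximate. Here too control 1 overlapped with the mutant group and the other 2 controls did not (exact permutation test, two-sided, p = 0.3). Both TATTTAT motifs of Klf6 are in this rest of the region.

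Klf3 encodes a repressor of the family and was the member with the steadiest counts in the control group. Its full region (ENSMUST00000165536, chr5:64829159-64833150, plus strand) had 170.9, 131.8 and 142.7 normalized counts in control and 225.0, 161.2 and 189.5 in M-Δx3,4. The groups overlapped only because M-Δx3,4 replicate 2 was below control 1. The log2 fold change was 0.37 with a standard error of 0.33 and a 95% interval from -0.27 to 1.02 (adjusted p = 0.984 in edgeR's quasi-likelihood test).

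The counted region of a shorter transcript of Klf3 (ENSMUST00000198946) covers the first 641 of the 3992 bases of this region. The reads could therefore be divided into a part near the stop codon and a distal part. The distal part had 57.0, 49.0 and 52.2 normalized counts in control and 85.1, 68.9 and 94.8 in M-Δx3,4. Every M-Δx3,4 library was above every control library, with means of 52.7 ± 4.0 and 82.9 ± 13 (SD, n = 3; 1.57-fold; two-sided exact permutation p = 0.1, the lowest that 3 against 3 libraries can give). The proximal part had 113.9, 82.8 and 90.5 normalized counts in control and 139.9, 92.2 and 94.8 in M-Δx3,4, with overlapping groups (exact permutation test, two-sided, p = 0.5). The share of the reads in the proximal part was 66.7%, 62.8% and 63.4% in control and 62.2%, 57.2% and 50% in M-Δx3,4. It was lower in every M-Δx3,4 library, by as little as 0.62 percentage points between the nearest pair (exact permutation test, two-sided, p = 0.1). No polyadenylation hexamer was found in the proximal part of Klf3, and the first was 1587 bases from the stop codon. Another coding transcript (ENSMUST00000166409) ends within the proximal part and differed from it in 1 library, M-Δx3,4 replicate 3, with 90.2 normalized counts. The other Klf3 transcripts, upstream of this region, had few reads. Their highest libraries were 10.5 for ENSMUST00000196764 (control 1), 8.1 for ENSMUST00000200587 (control 3), 9.2 for ENSMUST00000200384 (M-Δx3,4 replicate 3), and 6.1 for ENSMUST00000197879 and ENSMUST00000200677, which had identical counts (M-Δx3,4 replicate 3). The groups overlapped in each of them.

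Klf13 showed a similar distal part. The full region (ENSMUST00000063694, chr7:63886102-63891507, minus strand) had 108.1, 157.3 and 223.9 normalized counts in control and 184.9, 213.6 and 253.7 in M-Δx3,4. The 2 groups overlapped through control 3. The log2 fold change was 0.41 with a standard error of 0.36 and a 95% interval from -0.28 to 1.11 (adjusted p = 0.984 in edgeR's quasi-likelihood test).

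Split at the first 374 bases (ENSMUST00000185175), the distal part of Klf13 had 103.4, 126.7 and 160.1 normalized counts in control and 171.2, 201.0 and 239.2 in M-Δx3,4. All mutant libraries were above all controls, with means of 130.1 ± 28.5 and 203.8 ± 34.1 (SD, n = 3; 1.57-fold; two-sided exact permutation p = 0.1, the lowest possible). The proximal part had 4.6, 30.7 and 63.8 normalized counts in control and 13.7, 12.6 and 14.5 in M-Δx3,4. The 3 mutant libraries were close together, whereas the controls spread on both sides of them. The proximal share was 4.3%, 19.5% and 28.5% in control and 7.4%, 5.9% and 5.7% in M-Δx3,4 (exact permutation test, two-sided, p = 0.4). A polyadenylation hexamer begins 141 bases from the stop codon, within the counted proximal part. Where the annotated short transcript ends in that part was not examined.

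A second short transcript of Klf13 (ENSMUST00000183817), largely the same reads, passed the threshold in the opposite direction to the full region. It had 7.0, 33.7 and 67.3 normalized counts in control and 13.7, 13.6 and 16.0 in M-Δx3,4, a log2 fold change of -1.31 (standard error 0.61, unadjusted p = 0.0493 and adjusted p = 0.984 in edgeR's quasi-likelihood test). The groups overlapped through control 1, and without control 3 the log2 fold change was -0.49. The unadjusted p was above 0.05 in 11 of the 13 alternatives run for this transcript. With Klf6 this made 3 of 23 tested member transcripts past the threshold, beside 3.30% of all 32475 transcripts, and the 2 of Klf6 share reads.

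The splits of Klf3 and Klf13 can be read against all genes for which such a division was possible. Of 491 full regions with a shorter region at the same upstream edge and enough reads, the distal counts of the groups did not overlap in 9.37% and the proximal shares did not overlap in 9.98%. Those shares count both directions. Besides Klf3 and Klf13, Cebpg was the only member with such a pair, and it had too few counts to be divided. Counts per region do not give the position of an RNA end, and whether the distal reads belong to longer mRNAs was not tested. These parts were not corrected for GC content.

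**Figure D3:**
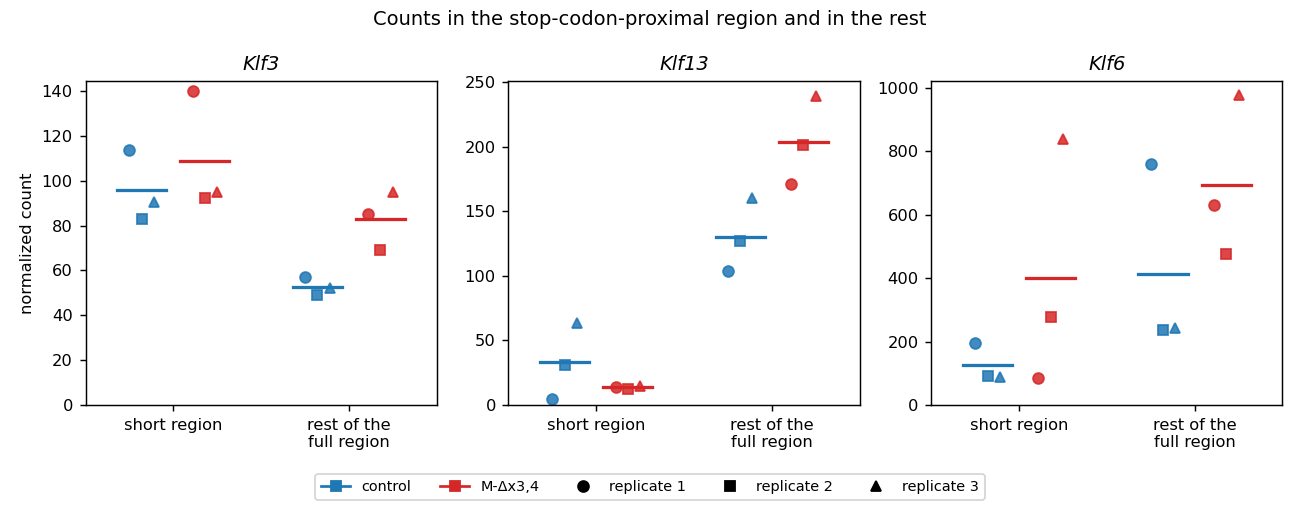
Normalized counts of Klf3, Klf13 and Klf6 in the short region near the stop codon and in the rest of the full region, 1 point per library (blue control, red M-Δx3,4, the shape giving the replicate) with the mean of each group as a line. The short region of Klf6 starts 52 bases before the full one, so its rest is approximate. In the rest of the region all red points are above all blue points for Klf3 (68.9 and more against 57.0 and less) and Klf13 (171.2 and more against 160.1 and less), but not for Klf6, where control 1 reached 759.0.

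Klf2 and Klf4, both known as restraints on macrophage activation, had lower counts. Klf2 (ENSMUST00000067912, chr8:72320920-72321905, plus strand) had 46.5, 35.8 and 34.8 normalized counts in control and 36.2, 40.8 and 24.5 in M-Δx3,4. The ranges overlapped and the log2 fold change was -0.21 with a standard error of 0.41. Klf4 (ENSMUST00000107619, chr4:55526894-55528124, minus strand) had 16.3, 19.4 and 8.1 normalized counts in control and 14.7, 13.6 and 11.5 in M-Δx3,4. All M-Δx3,4 values of Klf4 were within the range of the controls. Its log2 fold change was -0.15 with a 95% interval from -1.19 to 0.89. This approximate interval included a halving and ended just short of a doubling.

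Among the C/EBP genes, Cebpb and Cebpd, the members induced in inflammation, shared a pattern of control libraries. Cebpb (ENSMUST00000070642, chr2:167689913-167690418, plus strand) had 258.0, 372.9 and 747.1 normalized counts in control and 321.8, 349.6 and 376.8 in M-Δx3,4. Cebpd (ENSMUST00000096232, chr16:15888132-15891031, plus strand) had 294.1, 315.7 and 698.4 in control and 281.7, 286.5 and 318.7 in M-Δx3,4. In both genes control 3 was about double the other libraries, and the other 2 controls were close to the mutant group. The M-Δx3,4 libraries were close to each other, with a ratio of the highest to the lowest of 1.17 for Cebpb and 1.13 for Cebpd, compared with 2.9 and 2.38 in control. The log2 fold changes were -0.39 for Cebpb (standard error 0.38, 95% interval from -1.14 to 0.35) and -0.56 for Cebpd (standard error 0.37, 95% interval from -1.28 to 0.16), with an adjusted p of 0.984 for each in edgeR's quasi-likelihood test. They rested on control 3. Without it the log2 fold change was 0.16 for Cebpb and -0.03 for Cebpd, and without control 1 that of Cebpd was -0.77 with an unadjusted p of 0.0351. Reads of Spidr, which overlaps Cebpd on the opposite strand, numbered 2 to 7 per library.

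Cebpa, Cebpg and Cebpz had few counts and wide intervals. Cebpa (ENSMUST00000042985, chr7:35120499-35121928, plus strand) had 7.0, 20.4 and 16.2 normalized counts in control and 18.6, 3.9 and 7.6 in M-Δx3,4. This gave a log2 fold change of -0.54 with a 95% interval from -1.82 to 0.73 and overlapping groups. A second Cebpa transcript had identical counts. Cebpg (ENSMUST00000130491, chr7:35046173-35050383, minus strand), a short C/EBP protein known as a dimer partner of the others, had 23.2, 7.2 and 8.1 normalized counts in control and 8.8, 7.8 and 19.1 in M-Δx3,4. In each group 1 library was above the other 2, and the log2 fold change was -0.09 with a 95% interval from -1.32 to 1.15. Its shorter transcript ENSMUST00000070191 had 8.1, 0.0 and 3.5 normalized counts in control and 3.9, 2.9 and 6.9 in M-Δx3,4. Remaining transcripts of Cebpd (ENSMUST00000210772), Cebpg (ENSMUST00000205752) and Cebpz (ENSMUST00000233371) reached at most 0.8, 1.5 and 2.3 normalized counts and were not tested. Cebpz is not a zipper protein but a CCAAT-binding factor that shares the name. Its best counted transcript (ENSMUST00000233484, chr17:78919596-78932318, minus strand, 14 segments), annotated as a target of nonsense-mediated decay, had 8.1, 3.1 and 1.2 normalized counts in control and 6.8, 2.9 and 17.6 in M-Δx3,4. The log2 fold change of 1.15 had a 95% interval from -0.56 to 2.87 and was 0.24 without M-Δx3,4 replicate 3. The coding transcript of Cebpz had 2, 3 and 1 reads in control and 4, 2 and 7 in M-Δx3,4. Cebpzos overlaps the best counted transcript of Cebpz on the opposite strand with counts of its own.

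**Figure D4:**
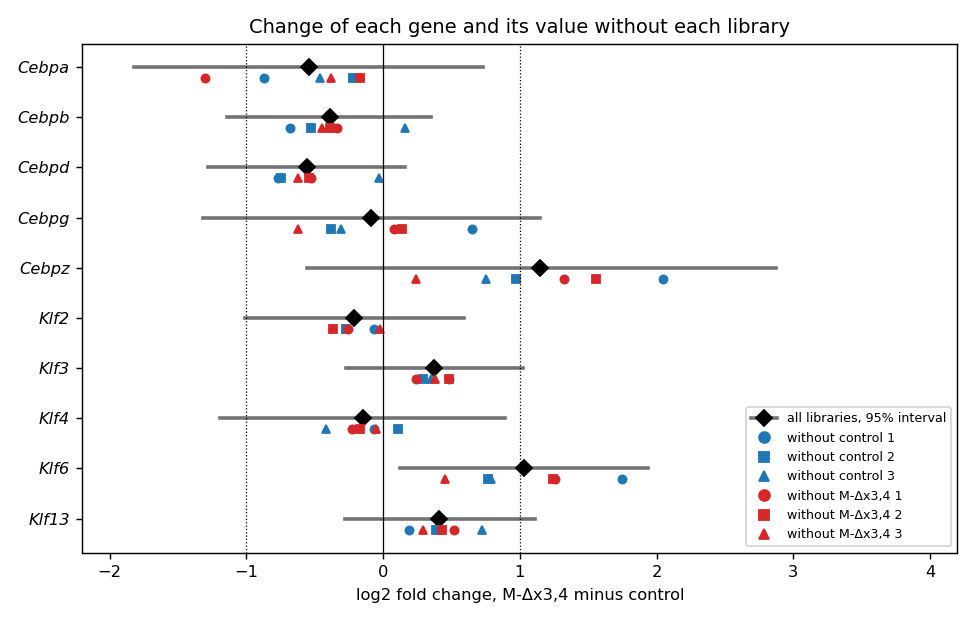
Diamonds give the log2 fold change of each member (M-Δx3,4 minus control) with its approximate 95% interval from edgeR's quasi-likelihood fit, and the coloured points below give the value with 1 library left out. The Klf6 points run from 0.45 to 1.75 and those of Klf3 from 0.24 to 0.48, while those of Cebpb, Cebpg and Klf4 lie on both sides of 0, and dotted lines mark the threshold of 1.

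The difference between control 1 and control 3 ran in opposite directions among the members, and it went along with base composition. Over all genes that averaged more than 50 normalized counts, the median log2 ratio of control 1 to control 3 was 0.95 for the 1172 genes whose last 500 transcript bases had a GC content under 40%, 0.15 for the 2019 genes from 40% to 50%, and -0.73 for the 1525 genes at 50% and over. The median log2 fold change between the groups was 0.25, 0.01 and -0.22 in the same classes. Cebpb (53.2% GC) and Cebpd (51.0% GC) had log2 ratios of control 1 to control 3 of -1.53 and -1.25. Klf6 (35.2% GC) had one of 1.54 and Klf3 (29.8% GC) one of 0.26. Klf13 did not follow the classes, with 42.2% GC and a ratio of -1.04, and Klf3 was under the 0.95 of its class. All these ratios, of classes and members, were taken after 1 was added to each normalized count. Among members with lower counts, Cebpa (49.6% GC) had -1.11 and Cebpz (41.2% GC) had 2.08, against 0.15 in their class. Cebpa is at the edge of the next class (-0.73), and Cebpz rested on 8.1 and 1.2 normalized counts in controls 1 and 3. Klf2, Klf4 and Cebpg had 0.41, 0.92 and 1.41, nearer to their classes. When the GC trend of each library was taken out of the fit, an alternative chosen after the data were seen, the log2 fold change of Klf6 was 0.83, below the threshold of 1, with an unadjusted p of 0.0227. That of Klf3 was -0.05, those of Cebpb and Cebpd were -0.18 and -0.43, and that of Klf13 was 0.24.

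The other genes of both families were read in the same way. Of 18 relatives, 7 had enough counts to be tested and 0 of these passed the threshold, by edgeR's quasi-likelihood test, by DESeq2 or at an unadjusted p under 0.05 alone. By edgeR's test, 3.07% of all genes passed the threshold and 3.98% had an unadjusted p under 0.05. Log2 fold changes of the 7 relatives had a median of 0.25 (-0.01 over all genes) and ran from -0.39 to 0.49. The best counted relatives were Klf7 (122.0, 64.4 and 51.0 normalized counts in control and 66.5, 103.9 and 110.8 in M-Δx3,4), Klf16 (40.7, 95 and 125.3 against 68.5, 66.0 and 64.2) and Sp1 (54.6, 41.9 and 59.2 against 70.4, 62.1 and 85.6). Sp1 is a zinc finger factor that binds the same GC-rich elements as KLF proteins. It was the 1 of the 7 tested relatives whose groups did not overlap, beside 8.44% of all genes tested. Its log2 fold change was 0.49 ± 0.38 (standard error). Klf1, Klf15 and Klf17 had no count in any library.

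Partners and targets of the factors, 37 genes in all, included 28 that could be tested, with a median log2 fold change of -0.22. The groups did not overlap in 3 of the 28, beside 8.44% of all genes tested. An unadjusted p under 0.05 (edgeR's quasi-likelihood test) was found in 2 of the 28, beside 3.98% of all genes. The 10 tested partners and regulators, such as the dimer partners Atf4 and Batf and the co-repressors Ctbp1 and Ctbp2, had a median of 0.19 and 0 passed the threshold or an unadjusted p under 0.05. Among the 11 tested C/EBP targets 9 had values below 0, as did 6001 of all 11875 genes, with a median of -0.42, and 0 passed the threshold while 1, Lyz2, had an unadjusted p under 0.05. Lyz2, which encodes lysozyme, had 1992.1, 1788.0 and 2200.8 normalized counts in control and 1342.0, 881.7 and 968.2 in M-Δx3,4. The groups did not overlap and the log2 fold change was -0.91 (standard error 0.3, unadjusted p = 0.0089 in edgeR's quasi-likelihood test). The Cre of M-Δx3,4 mice sits in this gene, and an effect of that insertion on its level cannot be told apart from one of the deletion. Saa3, an acute phase gene, had 4788.6, 4281.9 and 3152.2 against 3336.5, 3277.2 and 2542.5 normalized counts. Csf3r, the receptor of G-CSF, had 818.2, 1119.8 and 518.6 against 572.2, 973.0 and 706.1, and both genes had overlapping groups.

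The 7 tested KLF targets had a median of -0.64, and 1 passed the threshold, beside 3.07% of all genes. It was S1pr1, a lipid receptor controlled by Klf2 in lymphocytes, with 0.0, 2.0 and 11.6 normalized counts in control and none in M-Δx3,4. It entered the test only through control 3, its 1 library above the limit on low counts, and without control 3 it was not tested. Its call was also lost without any 1 of the M-Δx3,4 libraries, so it is not read as a difference between the groups.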

How the data were processed

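RNA of 3 control and 3 M-Δx3,4 BMDM cultures was sequenced from 3′ ends (QuantSeq FWD, Ion Proton). The authors mapped reads to mm10 with TopHat2 and Bowtie2 and deposited raw counts per 3′ UTR region of Ensembl transcripts, made with metaseqR2. The authors also deposited TPM values per transcript, which were used only to order levels between genes. Another 18 columns of other per-library values and 18 columns of the authors' own fold changes and p-values were not used.

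Counts of the segments of a transcript were summed here. Library factors were medians of ratios (RLE), and transcripts above the median normalized count (4.89) in at least 1 library were kept. M-Δx3,4 was compared with control over all 32475 transcripts by edgeR 4.0.16 (quasi-likelihood test, group as the only term, Benjamini-Hochberg adjustment), which was tested on simulated data first. Single values and parts of regions were compared with the exact two-sided permutation test on log2(normalized count + 1), and shares of regions on their own percentages. Library totals of 5852374 to 9008878 counts over all transcripts, or 2503213 to 3846120 with 1 transcript per gene, limit the precision of low genes. Reads carry no molecular identifiers.

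The 10 genes, the lists of relatives, partners, targets and cell type markers, and the tests were chosen with earlier results of these data known. Named were all members with every transcript that had counts of its own, Hnrnpd, and, from the list of relatives and from the joint list of partners and targets, each gene past the threshold and the 3 best counted. Other genes were named as examples or as markers, chosen after their values were seen. The study combined the p-values of several methods, in place of which edgeR's alone was used here. 3′ UTRs came from GENCODE vM21. No genome of the build was used here. Alternatives were TMM factors, library totals, DESeq2 1.42.0, other filters, 1 transcript per gene, a replicate block, a GC trend, and each library left out.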

Additional observations from a re-analysis of the deposited data

How the results depend on the processing

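With all libraries kept, 8 alternatives gave 78 values for the members, of which 76 kept the direction and the side of the threshold. The exceptions came from removing the GC trend of each library, chosen after the data were seen, where Klf6 had a log2 fold change of 0.83, the number of members past the threshold went from 1 to 0, and Klf3 had -0.05. The planned version of that alternative, which needs a genome of the build, was not run. The stricter edgeR filter left 8 members tested, without Cebpg and Cebpz. Leaving out each library gave 60 values, of which 52 kept direction and call. Members past the threshold then ran from 0 to 1, and Klf6 lost its call without control 2 (0.77), control 3 (0.79) or M-Δx3,4 replicate 3 (0.45). The sign changed for Cebpb without control 3 (-0.68 to 0.16 over left-out libraries), for Klf4 without control 2 (-0.42 to 0.11), and for Cebpg without control 1, M-Δx3,4 replicate 1 or M-Δx3,4 replicate 2 (-0.62 to 0.65). Where a left-out library left 2 in an arm, the spread was that of the remaining 5.

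Over all transcripts the number past the threshold was 1071, and it was 704 with DESeq2, 1715 with no filter, 471 with the stricter edgeR filter, 366 with 1 transcript per gene and 685 with the replicate block. It ran from 710 (without control 3) to 3224 (without control 1). Relatives past the threshold ran from 0 to 1 over left-out libraries (Klf8 without control 1). Partners and targets past the threshold numbered 1, but 0 with the stricter edgeR filter or the replicate block, and ran from 0 to 6 over left-out libraries, with 6 without control 1, 2 without M-Δx3,4 replicate 1 (Lcn2 and Lyz2 and not S1pr1), 1 without M-Δx3,4 replicate 2 (Hp in place of S1pr1), and 0 without control 3 or M-Δx3,4 replicate 3. The cause was not tested. Deviations from the group means correlated at -0.21, 0.54 and -0.31 for replicate numbers 1, 2 and 3, with no common sign. With 3 libraries per group these values cannot settle whether replicate numbers pair the libraries. With the block the best counted transcripts of the members kept their calls. The short transcripts of Klf6 (log2 fold change 1.31, unadjusted p = 0.0762 in edgeR's quasi-likelihood test) and Klf13 (-0.97) did not.

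Depth limits Cebpa, Cebpg, Cebpz and Klf4, whose means were under 15 normalized counts. Intervals of the other members, except that of Klf6, included 0 and a 2-fold change in 1 direction.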
